A study of Mus musculus with 144 samples.

Results

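Macrophages and endothelial cells in cultures of primary mouse hepatocytes were followed through 10 marker genes, 6 of macrophages (Clec4f, Adgre1, Cd68, Cd5l, Vsig4 and Ptprc) and 4 of endothelial cells (Pecam1, Kdr, Stab2 and Lyve1). The genes were given by name, each was found by its Ensembl identifier among the 55359 genes of the count files, and all 10 were read in every RNA-Seq library. The cells came from the livers of male mice aged 28 days, of the strain C57BL/6NCrl (label WT) or of a line in which a dioxin response element (DRE) inside an intron of Pkm, the gene of a glycolytic pyruvate kinase, had been deleted with CRISPR (label PkmΔDRE). After perfusion with collagenase and washing by centrifugation, hepatocytes were plated on collagen, and cells that had not attached were removed before the medium was changed to one with 10 nM TCDD or the DMSO vehicle. Libraries were made at 2, 4, 8 and 12 h and then daily (24, 48, 72, 96 and 120 h), 4 for each of the 36 combinations of label, treatment and hour, and are named here as in the labels, P172_01 onwards. TCDD, the most potent dioxin, binds the aryl hydrocarbon receptor (AHR), which then acts on genes through DREs. The labels give the cell type as hepatocyte, and no macrophage or endothelial fraction was isolated. They also give no origin of the 4 libraries of a group, so p-values measure only the spread between these libraries, which may be technical.

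Kupffer cells are the resident macrophages of the liver and lie inside the sinusoids, where they take up particles, bacteria and ageing red cells from the blood. Liver sinusoidal endothelial cells form the perforated wall of the same vessels and clear waste molecules such as hyaluronan and denatured collagen through scavenger receptors. Preparations of primary hepatocytes carry some of both cell types over. Kupffer cells lose part of their tissue-specific expression when they leave the niche formed by stellate cells, hepatocytes and endothelium, and sinusoidal endothelial cells lose their specialised features in culture within days. In RNA from whole cultures, fewer cells of a type and less RNA of a gene per cell cannot be told apart.

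The member genes fall into several roles. Clec4f is a galactose-binding C-type lectin restricted in mice to Kupffer cells, Vsig4 is a complement receptor of resident macrophages, Cd5l is a protein secreted by macrophages, and Adgre1 encodes F4/80, the classical mouse macrophage antigen. Cd68 is a lysosomal glycoprotein that is abundant in macrophages but also present in other cells, and Ptprc encodes CD45, the phosphatase found on nearly all leukocytes. Pecam1 is a junctional adhesion molecule of all endothelial cells, Kdr is the main signalling receptor for VEGF, Stab2 is the sinusoidal scavenger receptor for hyaluronan, and Lyve1 is a hyaluronan receptor of lymphatic and sinusoidal endothelium.

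The upstream sequences of 3 members are shown because the results turn on these genes, Kdr as the member called in the TCDD response averaged over the hours and Clec4f and Vsig4 as 2 Kupffer-cell genes with different courses. Each line gives the 250 bases before the start site on the gene's own strand, from RefSeq on GRCm38.p6, whereas the count files follow GRCm39. Capitals mark GCGTG, the DRE core, in Kdr and GAGGAA, the core of binding sites of the macrophage factor PU.1, in Vsig4.
Kdr, chr5:75978456-75978705, minus strand: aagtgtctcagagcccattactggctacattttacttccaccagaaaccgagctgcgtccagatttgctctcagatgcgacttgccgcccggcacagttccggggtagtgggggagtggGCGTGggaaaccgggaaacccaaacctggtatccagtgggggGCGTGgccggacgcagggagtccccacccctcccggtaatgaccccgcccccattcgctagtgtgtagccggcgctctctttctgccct
Vsig4, chrX:96293439-96293688, minus strand: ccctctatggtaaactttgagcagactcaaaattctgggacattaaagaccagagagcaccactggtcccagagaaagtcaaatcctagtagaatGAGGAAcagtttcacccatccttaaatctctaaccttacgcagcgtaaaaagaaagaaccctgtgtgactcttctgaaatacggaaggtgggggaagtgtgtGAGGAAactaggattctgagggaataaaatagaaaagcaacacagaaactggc
Clec4f, chr6:83656117-83656366, minus strand: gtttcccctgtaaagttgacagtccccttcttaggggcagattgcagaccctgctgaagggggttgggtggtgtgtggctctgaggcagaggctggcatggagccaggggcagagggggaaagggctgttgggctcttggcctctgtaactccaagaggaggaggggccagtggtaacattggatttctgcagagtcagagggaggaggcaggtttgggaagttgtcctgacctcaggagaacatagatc
Of the 10 members, 7 had an upstream sequence in the table used. On either strand, GCGTG stood at −131 and −89 from the start site of Kdr and in no other of these members, and 28.2% of the 32851 promoters held it at least 1 time and 8.63% at least 2 times. GAGGAA stood at −155 and −53 in Vsig4, at −66 in Cd5l, at −225 in Cd68, and at −158 in 1 of the 2 sequences of Ptprc, against 23.3% of all promoters with at least 1 match and 3.54% with at least 2. Neither motif was in the 250 bases of Clec4f, and no match of one overlapped a match of the other. A match of these letters is not a bound site.

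Between 13588848 and 30719161 read pairs per library were counted on genes, with a median of 18011825. Levels are given as CPM, the count of a gene relative to the size of its library, with library sizes scaled by TMM, a method that equalises most genes between libraries. Pkm, the targeted gene, was higher with TCDD under label PkmΔDRE, by 0.61 ± 0.16 (SE) on the log2 scale averaged over the hours (edgeR, adjusted p = 0.0156), and stood at −0.26 ± 0.17 under label WT (adjusted p = 0.228), which goes against the labels in direction. The difference between these averages was 0.88 ± 0.24 (adjusted p = 0.0504), and groups are named here by the labels of their libraries. Libraries P172_80 (label PkmΔDRE, vehicle, 4 h) and P172_104 (label PkmΔDRE, vehicle, 96 h) went against their hour labels. Over 12234 genes, their correlations with the other libraries of their own hour were −0.71 and −0.75, while library P172_80 was most like 96 h (r of 0.83) and library P172_104 most like 4 h (r of 0.87). Of the remaining libraries, 24 were most like a neighbouring hour, 2 like one 2 steps away and the rest like their own. Tests that use libraries P172_80 and P172_104 were repeated without them. Libraries P172_27 and P172_63 (label WT, 72 h) and P172_34 (label WT, 120 h) held 4, 0 and 10 counts in all of the 5 macrophage members other than Cd68, against 46 or more in every other library.

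At 2 h, markers of both cell types were read. Per kilobase of exon, the mean level in vehicle at 2 h over both labels was 36.2 CPM per kb for Cd68, 29 for Clec4f, 22.5 for Lyve1 and 21.5 for Cd5l. These 4 formed the upper group, in which neighbours overlapped between libraries. Pecam1 followed at 8.23, Vsig4 at 7.43, Stab2 at 5.61 and Adgre1 at 3.04 CPM per kb, again with overlap between neighbours, and below them stood Kdr at 0.920 and Ptprc at 0.0142. Cd5l and Pecam1, Adgre1 and Kdr, and Kdr and Ptprc did not overlap. At 120 h the order of these levels was different, with Cd68 at 13.3, Vsig4 at 4.93, Pecam1 at 2.31, Stab2 at 1.57, Lyve1 at 1.46, Cd5l at 1.2, Adgre1 at 0.995, Kdr at 0.637, Clec4f at 0.191 and Ptprc at 0.0294 CPM per kb. Clec4f, next to the top of this order at 2 h, was next to the bottom at 120 h, and Vsig4 had taken the place after Cd68.

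Ptprc was low throughout, with at most 48 counts in a library. Its mean in vehicle was 0.0142 CPM per kb at 2 h and 0.0294 at 120 h, and this change was not called under either label. It had no count in 39 libraries and never exceeded 1.95 CPM, so the pan-leukocyte marker gave little weight to the macrophage signal at any hour. Of the other members, Clec4f was at 0 in 7 libraries, Kdr in 3, Adgre1, Cd5l and Vsig4 in 2 each, and Cd68, Pecam1, Stab2 and Lyve1 in none.

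Clec4f, the lectin restricted to Kupffer cells, showed the steepest decline. In vehicle cultures of label WT it stood at 93.6, 68.6, 49.2 and 61.3 CPM in the 4 libraries of 2 h, at 4.41, 3.12, 5.10 and 14.9 CPM at 24 h, and at 1.14, 0, 0 and 1.19 CPM at 120 h. The 3 hours did not overlap, and the mean at 24, 48 and 120 h was 10.1%, 1.22% and 0.852% of that at 2 h. Under label PkmΔDRE the values were 73.5, 48.6, 66.4 and 112.2 CPM at 2 h and 1.07, 0.0352, 0.0801 and 0.270 CPM at 120 h, again without overlap. The log2 fold change from 2 to 120 h was −6.98 ± 0.77 (SE) under label WT (edgeR's quasi-likelihood test, adjusted p = 2.59e-09) and −7.93 ± 1.47 under label PkmΔDRE (adjusted p = 7.79e-05). Most of this drop lay before 48 h, at which hour the 4 vehicle libraries of label WT ranged from 0.441 to 1.18 CPM.

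Cd5l, the secreted macrophage protein, fell less far and more unevenly. Label WT vehicle libraries held 55.8, 41.2, 28.0 and 26 CPM at 2 h and 5.00, 0.0850, 0.0740 and 2.05 CPM at 120 h, and those of label PkmΔDRE 45.2, 22.7, 48.2 and 83.3 CPM and 8.91, 0.915, 0.601 and 1.85 CPM. The hours did not overlap under either label, but the 4 libraries of 120 h differed widely among themselves. From 2 to 120 h Cd5l fell by 4.54 ± 0.82 (SE) on the log2 scale under label WT (edgeR, adjusted p = 1.68e-05) and by 4.22 ± 0.96 under label PkmΔDRE (adjusted p = 0.000695).

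Adgre1 and Vsig4 did not share this course. For Adgre1, the F4/80 gene, label WT vehicle libraries held 12.8, 8.59, 6.23 and 6.98 CPM at 2 h and 7.55, 0.0850, 2.00 and 4.78 CPM at 120 h, so that the hours overlapped. The log2 fold change was −1.44 ± 0.64 (SE; edgeR, adjusted p = 0.0531). Under label PkmΔDRE the values went from 11.2, 7.21, 9.18 and 16.6 CPM to 4.99, 2.78, 0.801 and 2.80 CPM without overlap, and Adgre1 fell by 2.15 ± 0.71 on the log2 scale (adjusted p = 0.0129). This call was lost without library P172_107 (−1.82, adjusted p = 0.0507), and label WT passed the test without library P172_03 (−1.58, adjusted p = 0.0472) or library P172_33 (−2.08, adjusted p = 0.0129). Vsig4, the complement receptor, stood at 7.43, 10.6, 9.08 and 9.52 CPM at 2 h, at 2.51, 1.62, 0.0439 and 3.42 CPM at 72 h, at 9.40, 9.21, 7.30 and 9.52 CPM at 96 h and at 11.8, 0.255, 0.185 and 12.7 CPM at 120 h in label WT vehicle cultures. At 96 h the libraries were again close to those of 2 h, and at 120 h they split into a pair above all libraries of 2 h and a pair near 0. The log2 fold change from 2 to 120 h was −0.72 ± 0.84 under label WT (adjusted p = 0.467) and −0.82 ± 0.66 under label PkmΔDRE (adjusted p = 0.305), where the 2 h values of 16.4, 6.90, 9.11 and 19.2 CPM overlapped those of 120 h, 21, 4.12, 2.40 and 6.13 CPM. Library P172_105 held the 21 CPM, and without it Vsig4 passed the test under label PkmΔDRE (−1.80, adjusted p = 0.0339).

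Cd68 was highest in the middle of the course. In label WT vehicle cultures it stood at 47.4, 45, 36.8 and 40.1 CPM at 2 h, at 71.4, 133.1, 69.6 and 88.8 CPM at 12 h, where the mean was 214% of that at 2 h, and at 14.2, 13, 7.74 and 17.5 CPM at 120 h. None of these 3 hours overlapped. Under label PkmΔDRE the highest mean came at 24 h, 185% of that at 2 h, from 160, 51.4, 36 and 112.5 CPM, which overlapped the 57.5, 43.4, 44.9 and 49.5 CPM of 2 h. From 24 to 120 h, Cd68 fell by 2.27 ± 0.33 (SE) on the log2 scale under label WT (edgeR, adjusted p = 2.36e-06) and by 2.18 ± 0.48 under label PkmΔDRE (adjusted p = 0.00169), whereas from 2 to 24 h it did not pass the test (0.41 ± 0.32 and 0.73 ± 0.46, adjusted p = 0.297 and 0.221). With library totals in place of TMM, Cd68 was called higher from 2 to 24 h under both labels (1.2 ± 0.29, adjusted p = 0.000556, and 1.57 ± 0.37, adjusted p = 0.00086), while the median of all genes moved up by 0.77 and 0.90. From 2 to 120 h it fell by 1.86 ± 0.33 under label WT (adjusted p = 1.28e-05) and by 1.45 ± 0.47 under label PkmΔDRE (adjusted p = 0.0111, and 0.0530 without library P172_106). In libraries P172_27, P172_63 and P172_34, where the other macrophage members held 20 counts or fewer in all, Cd68 stood at 48.6, 140 and 13 CPM.

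**Figure D1:**
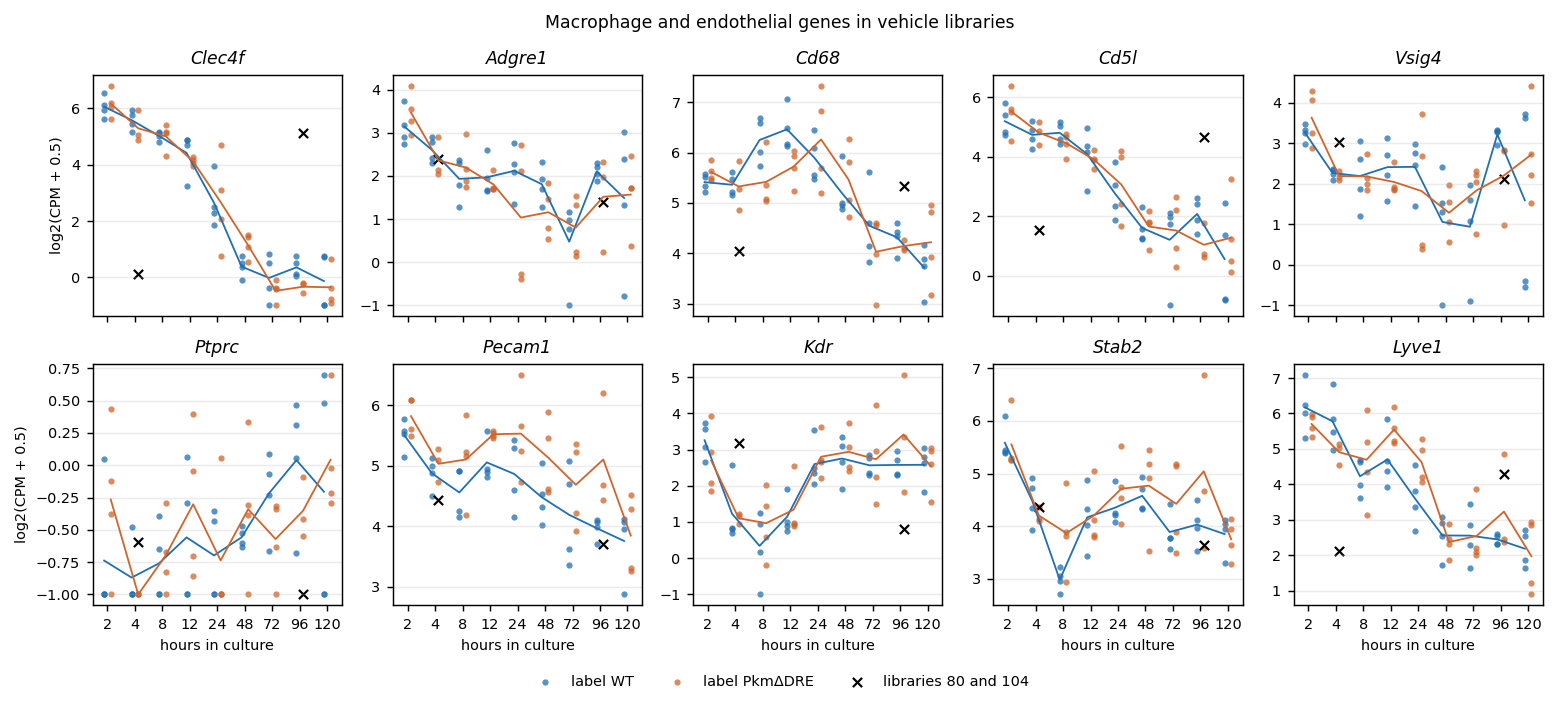
Level of the 10 members in vehicle cultures, 1 panel per gene, as log2(CPM + 0.5) against hour; points are libraries, blue for label WT and orange for label PkmΔDRE, lines join the means of each hour without libraries P172_80 and P172_104, which are marked by crosses. Clec4f ends at 0.852% (label WT) and 0.483% (label PkmΔDRE) of its mean at 2 h, and Cd68 peaks at 12 or 24 h. Kdr is low from 4 to 12 h, and Stab2 is low at 8 h under label WT.

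The unequal decline of these genes was also described inside each library, where scaling between libraries plays no part, for pairs chosen after their courses had been seen and therefore with no test. With a count of 0.5 added to each gene, the log2 ratio of Clec4f to Vsig4 counts in label WT vehicle cultures was 3.65, 2.69, 2.43 and 2.68 at 2 h and −3.35, −3.70, −3.46 and −3.40 at 120 h, so the libraries of the hours lay far apart. The mean went from 2.86 ± 0.54 (SD, n = 4) to −3.48 ± 0.16, a difference of −6.34. It differed by −7.82 in TCDD cultures of the same label and by −7.48 and −6.87 in vehicle and TCDD cultures of label PkmΔDRE. The log2 ratio of Clec4f to Adgre1 differed between the same hours by −6.44 and −8.51 under label WT and by −6.32 and −5.98 under label PkmΔDRE, vehicle first. With a count of 1 added in place of 0.5, the Clec4f to Vsig4 differences were −5.88, −7.49, −7.28 and −6.65 in the same order. The 3 libraries of label WT at 120 h with 0 counts of Clec4f, P172_34 and P172_35 in vehicle and P172_71 with TCDD, held 6, 5 and 7 counts of Vsig4, so their Clec4f to Vsig4 ratios rest mostly on the added count.

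**Figure D2:**
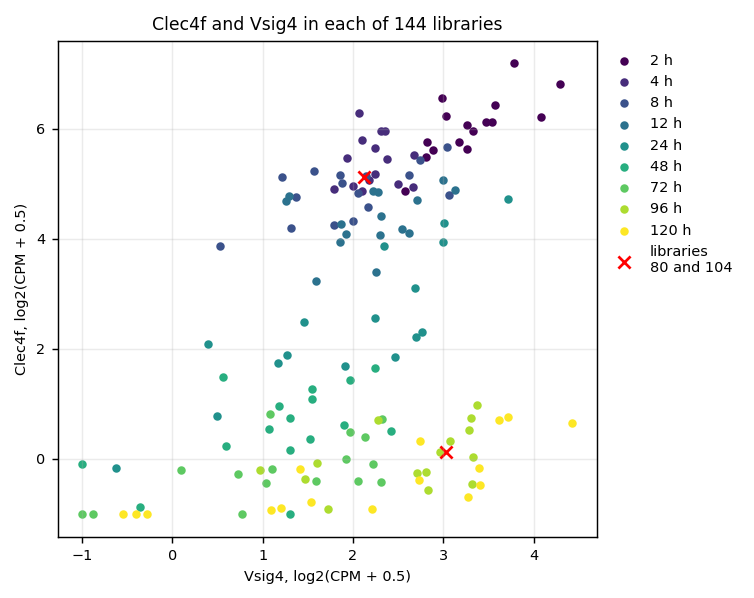
Level of Vsig4 against level of Clec4f in each library, both as log2(CPM + 0.5) and coloured by hour. The 2 h libraries lie at high Clec4f, and those of 48 h and later lie at low Clec4f over the whole range of Vsig4, which spans 0 to 21 CPM; library P172_104 is the exception among them.

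Under label WT, every vehicle library of 8 h was below those of 2 h in each endothelial member, and the members later took different courses. Stab2, the sinusoidal scavenger receptor, stood at 41.2, 43.3, 67.6 and 42.3 CPM at 2 h in label WT vehicle cultures, at 7.75, 7.21, 8.81 and 5.99 CPM at 8 h, at 18, 16.4, 28.3 and 18.6 CPM at 24 h and at 14.9, 16, 16.8 and 9.30 CPM at 120 h. The 8 h libraries were below all those of the other hours named, at 15.3% of the mean of 2 h. For Kdr, the VEGF receptor, the values were 12.8, 5.85, 11.3 and 7.85 CPM at 2 h, 0.628, 0, 1.42 and 1.88 CPM at 8 h, 5.11, 3.6, 11.1 and 4.56 CPM at 24 h and 6.41, 5.70, 7.81 and 3.08 CPM at 120 h. The 8 h mean was 10.4% of that at 2 h, and all 8 h libraries were below every library of 2, 24 and 120 h. Kdr was also low at 4 h (1.29, 1.23, 5.41 and 1.13 CPM) and at 12 h (1.51, 1.17, 3.28 and 1.36 CPM), which overlapped 8 h. Under label PkmΔDRE the 8 h libraries were less uniform, with Stab2 at 14.3, 27.8, 13.6 and 7.17 CPM and Kdr at 1.01, 3.57, 2.19 and 0.381 CPM. There library P172_82 held 56.5 CPM of Pecam1, inside the range of 2 h, and 67.7 CPM of Lyve1, above all libraries of 2 h. The lower levels at 4, 8 and 12 h and the higher ones at 24 h are given as levels. The hours 4, 8 and 12 h were not tested against other hours.

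From 2 to 120 h, Stab2 fell by 1.93 ± 0.27 (SE) on the log2 scale under label WT (edgeR, adjusted p = 2.82e-07) and by 2.09 ± 0.57 under label PkmΔDRE (adjusted p = 0.0037). Kdr did not pass the test, with −0.88 ± 0.52 (adjusted p = 0.143) and −0.50 ± 0.77 (adjusted p = 0.601). Kdr and Vsig4 were thus the members, with Ptprc, that stayed outside the test in vehicle under both labels.

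Pecam1 and Lyve1 fell under both labels. Pecam1, carried by all endothelial cells, went from 45.7, 34.8, 47.3 and 54.1 CPM at 2 h to 15.1, 16.3, 17 and 6.83 CPM at 120 h under label WT and from 67.5, 48.3, 44.8 and 67.8 CPM to 22.5, 19, 9.14 and 9.42 CPM under label PkmΔDRE, without overlap. It fell by 1.89 ± 0.33 (SE; edgeR, adjusted p = 8.45e-06) and by 2.12 ± 0.48 (adjusted p = 0.0006) on the log2 scale. Lyve1, the hyaluronan receptor, went from 64.2, 39.4, 136.8 and 75.8 CPM to 5.27, 6.08, 2.59 and 3.11 CPM under label WT and from 47.6, 59.1, 40.03 and 62.9 CPM to 7.17, 6.69, 1.80 and 1.35 CPM under label PkmΔDRE, also without overlap. It fell by 4.36 ± 0.50 (adjusted p = 7.63e-09) and by 3.80 ± 0.71 (adjusted p = 8.36e-05). The log2 ratio of Lyve1 to Stab2 inside each library was also lower at 120 h than at 2 h, by differences of −2.38 and −3.43 under label WT and −2.12 and −3.22 under label PkmΔDRE, vehicle first.

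The endothelial members were high together in single libraries of label PkmΔDRE at 96 h. Library P172_102 (vehicle) held 33.1 CPM of Kdr, 117.6 of Stab2, 73.1 of Pecam1 and 28.3 of Lyve1, and library P172_138 (TCDD) held 46, 129.4, 82.9 and 27.1 CPM. In the other vehicle libraries of that hour, library P172_104 set aside, Kdr stood at 3.06 and 9.62 CPM. The macrophage members Adgre1 and Vsig4 were at 4.50 and 6.52 CPM in library P172_102 and at 2.7 and 2.27 CPM in library P172_138, within or next to the range of the other libraries of their groups.

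Summed over members, the macrophage genes went from a mean of 166 ± 38.5 CPM (SD, n = 4) at 2 h to 25.8 ± 16.4 CPM at 120 h in label WT vehicle cultures and from 198 ± 63.3 to 35.7 ± 22.1 CPM under label PkmΔDRE. Without Cd68 the sums at 2, 24 and 120 h were 123.9, 23.7 and 12.7 CPM under label WT and 149, 27.7 and 15.3 CPM under label PkmΔDRE, which shows how much of the later sum was Cd68. Under label WT the endothelial sums at 2, 8, 24 and 120 h were 183 ± 58.7, 51.3 ± 14.1, 69.9 ± 26.2 and 38 ± 10.54 CPM, and 166 ± 44.3, 87.2 ± 51, 111.3 ± 34.8 and 38.3 ± 15.1 CPM at the same hours under label PkmΔDRE.

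Expression changed widely with time in these cultures, so each count of members is set beside that of all genes. Calls needed a fold change of 1.5 or more, in either direction, with an adjusted p below 0.05. From 2 to 120 h in vehicle, 6 of 10 members were called under label WT and 7 of 10 under label PkmΔDRE, all lower, whereas 57.9% and 49.4% of all genes tested were called in either direction and 24.5% and 22.7% lower. The median log2 fold change of the members was −1.88 and −2.10, beside 0.21 and 0.24 over all genes. From 2 to 24 h, 4 members (Clec4f, Cd5l, Stab2 and Lyve1) were called lower under label WT and 3 (Clec4f, Adgre1 and Cd5l) under label PkmΔDRE, beside 45.8% and 33.2% of genes called and 20% and 15.2% called lower. All 3 calls of label PkmΔDRE were lost without library P172_90, the Clec4f and Cd5l calls there also without library P172_75, P172_76 or P172_91 (lowest adjusted p of these 0.0512), and the Clec4f call without library P172_73 or P172_89. From 24 to 120 h, 5 members (Clec4f, Cd68, Cd5l, Pecam1 and Lyve1) were called lower under label WT and 4 (these without Cd5l) under label PkmΔDRE, beside 35.6% and 23.4% of genes called and 18.6% and 14% called lower. The Cd5l call under label WT was lost without any 1 of 5 of its 8 libraries, P172_17, P172_20, P172_34, P172_35 or P172_36 (adjusted p from 0.0502 to 0.136), and the Clec4f call under label PkmΔDRE without library P172_92 (−3.61, adjusted p = 0.0519). In TCDD cultures, from 2 to 120 h, the same 6 members were called lower under label WT and 7 under label PkmΔDRE (Clec4f, Adgre1, Cd68, Cd5l, Vsig4, Pecam1 and Lyve1), beside 53.2% and 49.9% of genes called and 25.2% and 23.9% called lower. The Vsig4 call was lost without library P172_143 (−1.61, adjusted p = 0.0514) and without the filter on low counts (−1.63, adjusted p = 0.0795). It was also lost with library totals in place of TMM (−0.61, adjusted p = 0.402). These comparisons share libraries with each other. With TMM and all libraries, no member was called higher in any of them. With library totals, Kdr was called higher with TCDD from 2 to 120 h under label PkmΔDRE (1.85, edgeR, adjusted p = 0.0301). Of all genes, 10695 of 15686 were then called. Ptprc was called higher from 2 to 120 h under label WT without library P172_03 (6.34, adjusted p = 0.0325). Without library P172_91 under label PkmΔDRE, Ptprc was higher from 24 to 120 h (6.40, adjusted p = 0.0143). From 2 to 24 h it was then lower (−5.98, adjusted p = 0.0198). Without libraries P172_80 and P172_104, the vehicle counts under label PkmΔDRE were 3, 7 and 5 in place of 3, 7 and 4.

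The scaling between libraries bore on the size of these changes. When library totals were used in place of TMM, the median log2 fold change of all genes from 2 to 120 h in vehicle moved by 1.21 under label WT and 1.33 under label PkmΔDRE, and all fold changes moved up with it. Of all genes tested, 11547 of 15862 under label WT and 11053 of 15968 under label PkmΔDRE were then called in either direction. Clec4f, Cd5l and Lyve1 were still called lower under both labels, and Cd68 and Stab2 under label WT. Pecam1 (−0.69 under label WT) was not called, and Vsig4 and Kdr changed sign, to 0.55 and 0.31 under label WT and 0.50 and 0.87 under label PkmΔDRE, without passing the test. Relative to the typical gene of the culture, the direction of these members was that given with TMM.

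Other genes of the same cells were counted in lists, which, like the members, were chosen with earlier results of these data known. Of 22 further Kupffer-cell and macrophage genes, 19 were tested under label WT, of which 12 were called lower and 0 higher from 2 to 120 h in vehicle, and under label PkmΔDRE 8 of 22 were called lower and 0 higher, with a median of −1.71 and −1.28. Timd4, the receptor for phosphatidylserine on resident Kupffer cells, ranged from 7.53 to 14.7 CPM at 2 h and from 0.240 to 0.420 CPM at 24 h under label WT and was at 0 in 3 of 4 libraries at 120 h and 0.0321 CPM in the fourth. Under label PkmΔDRE it ranged from 5.82 to 13.3 CPM at 2 h and was at 0 in all 4 libraries at 120 h. Spic, a transcription factor of macrophages that recycle heme iron, fell by 3.51 and 5.79 on the log2 scale (label WT first), and C1qb, a chain of complement C1q, by 2.49 and 2.20. Between 24 and 120 h, 1 gene of this list was called lower and 0 higher under label WT, and 2 lower and 3 higher under label PkmΔDRE, so most of the list's calls belonged to the first 24 h, when 11 and 12 were lower. With library totals, the counts from 2 to 120 h were 3 lower and 2 higher under label WT and 3 lower and 1 higher under label PkmΔDRE. Of all genes, 11547 of 15862 and 11053 of 15968 were then called in either direction.

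Of 22 further endothelial genes, all tested, 15 were called lower and 1 higher under label WT and 11 lower and 1 higher under label PkmΔDRE, with medians of −1.65 and −1.52. The sinusoidal genes Clec4g, a lectin, and Dnase1l3, a secreted nuclease, fell by 5.79 and 4.81 on the log2 scale under label WT and by 5.63 and 6.71 under label PkmΔDRE, and Esam, a junctional adhesion molecule, fell by 3.78 and 3.84. Sox18, a transcription factor of endothelial development, rose by 3.27 ± 0.79 (SE) and 3.44 ± 1.19 (edgeR, adjusted p = 0.000656 and 0.0173). With library totals the counts were 10 lower and 4 higher under label WT and 4 lower and 4 higher under label PkmΔDRE. Beside them, 11547 of 15862 and 11053 of 15968 of all genes were called in either direction.

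**Figure D3:**
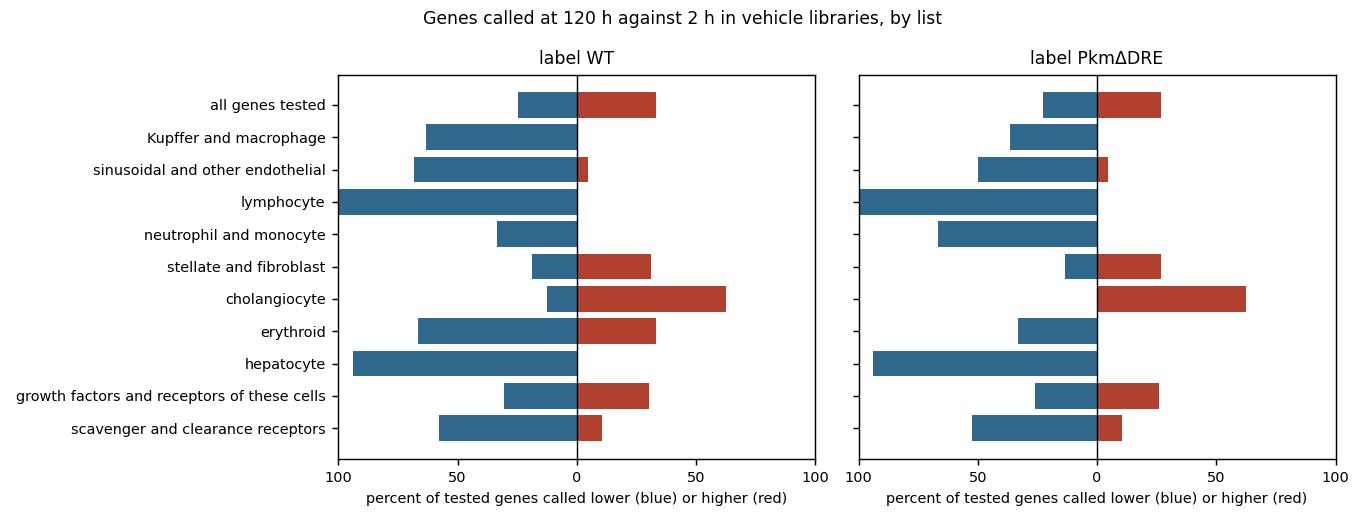
Percent of the tested genes of each list that were called lower (to the left of 0) or higher (to the right) from 2 to 120 h in vehicle, by label. The macrophage, endothelial, lymphocyte and hepatocyte lists lie to the left, with 12 of 19, 15 of 22, 3 of 3 and 15 of 16 genes lower under label WT, and the cholangiocyte list lies to the right, with 5 of 8 genes higher.

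Markers of other cell types moved in both directions over the same hours. All 3 of 14 lymphocyte genes that could be tested were called lower under both labels, with Cd4, the T helper cell receptor, down by 5.33 and 4.91 and the chemokine Ccl5 by 3.18 and 5.03 on the log2 scale (label WT first). Of the 12 neutrophil and monocyte genes, 3 were tested, of which Csf3r, the receptor for G-CSF, was lower under both labels. Of the hepatocyte genes, 15 of 16 were called lower under each label, with medians of −4.55 and −4.91. Among stellate-cell and fibroblast genes, 5 of 16 were higher and 3 lower under label WT and 4 of 15 higher and 2 lower under label PkmΔDRE, where 33.4% and 26.8% of all genes were called higher. Col1a1 and Col3a1, chains of fibrillar collagens, rose by 7.94 and 5.4 under label WT, and Acta2, the smooth muscle actin of activated stellate cells, went from 0 in all 4 libraries at 2 h to between 8.63 and 54.1 CPM at 120 h. Colec11 and Reln of the same list were lower under both labels (−3.41 and −1.65 under label WT, −4.00 and −1.60 under label PkmΔDRE). Of the cholangiocyte genes tested, 5 of 8 were higher under each label, among them Spp1, or osteopontin, by 5.4 and 6.41. Of the 3 erythroid genes tested, 2 were lower under label WT and 1 under label PkmΔDRE, and Alas2, the heme synthesis enzyme of red cell precursors, fell by 8.16 and 9.77. The part of these cell types in the levels of the members was not tested.

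Of 23 growth factors of macrophages and endothelium and their receptors that were tested, 7 were higher and 7 lower from 2 to 120 h in vehicle under label WT, and 6 higher and 6 lower under label PkmΔDRE, shares near those of all genes. Csf1 and Il34, the ligands of the macrophage growth factor receptor Csf1r, rose by 3.53 ± 0.37 (SE) and 2.80 ± 0.68 on the log2 scale under label WT and by 2.28 ± 0.63 and 3.34 ± 1.23 under label PkmΔDRE, while Csf1r itself was called lower under both. Vegfa, the principal ligand of Kdr, fell by 2.46 ± 0.66 and 1.83 ± 0.37, and Flt1, a VEGF receptor that binds ligand with little signalling, fell by 2.58 ± 0.49 and 1.78 ± 0.51 (edgeR, adjusted p under 0.05 for each). Angpt1, the activating ligand of the endothelial receptor Tek, was at 0 in all libraries at 2 and 24 h and between 0.510 and 2.40 CPM at 120 h under label WT. With library totals, 12 of these genes were called higher and 2 lower under label WT, and 12 higher and 0 lower under label PkmΔDRE. All fold changes moved up with that scaling, and 11547 of 15862 and 11053 of 15968 genes tested were called in either direction. Of 19 scavenger and clearance receptors tested, 11 were lower and 2 higher under label WT and 10 lower and 2 higher under label PkmΔDRE. Of all genes tested, 24.5% and 22.7% were lower and 33.4% and 26.8% higher. This list holds the members Clec4f, Cd68, Vsig4, Stab2 and Lyve1, and all but Vsig4 were among the lower ones. It also shares genes with the macrophage and endothelial lists, so its calls are partly the same calls. The growth factor list likewise holds Kdr. The 2 higher receptors were the fatty acid transporter Cd36 (4.73 and 5.67) and Cxcl16 (2.74 and 1.51). Among those lower under both labels, Clec4f and Lyve1 fell furthest, followed by Scarb1, the HDL receptor (−3.37 and −3.30).

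Genes whose levels moved with a member from library to library were ranked by the correlation of their deviations from the group means over all libraries, among 12218 genes, as a description. Clec4f was most like Fcna (r of 0.82), H2-Aa (0.81) and Cd74 (0.77), and without libraries P172_80 and P172_104 like C1qb (0.80), C1qc (0.80) and Csf1r (0.79). Vsig4 was most like C1qc (0.82), Ccl6 (0.81) and C1qa (0.80), and Adgre1 was most like Vsig4 (0.71), Ctss (0.70) and Lyz2 (0.69). Cd5l was most like Itgb2 (0.74), C1qb (0.72) and Clec4f (0.71). Cd68 stood apart from these, being most like Bsg (0.78), which encodes basigin, Tpi1, a glycolytic enzyme, and the lysosomal protease Ctsb (0.75), and its own correlation with Adgre1 was −0.19. Among endothelial members, Pecam1 was most like Cdh5 (0.91), the cadherin of endothelial junctions, S1pr1 (0.80) and Arap3 (0.79), and Stab2 like Ptprb (0.79), Adgrf5 (0.78) and Cd38 (0.77). Lyve1 was most like Cd93 (0.86), Gja1 (0.75) and Arhgap31 (0.74), and Kdr like Stab2 (0.76), Fgd5 (0.72) and Fzd4 (0.72). Libraries share depth and the mix of cells, which these correlations do not separate. Without libraries P172_80 and P172_104, 16 of the 27 genes, 3 for each of 9 members, were the same.

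TCDD against time-matched vehicle was tested at each hour. Under label WT, 3 members were called at 8 h and 3 at 96 h, all lower, and none at the 7 other hours. At 8 h, Cd5l stood at 15.2, 11.6, 5.81 and 15.6 CPM with TCDD and at 23.6, 21.2, 35 and 32 CPM with vehicle, without overlap, and fell by 1.24 ± 0.29 (SE) on the log2 scale (edgeR, adjusted p = 0.00504). Cd68 stood at 46.4, 46.2, 27.3 and 45.3 CPM against 95.5, 101.7, 63.6 and 52.6 CPM, without overlap, and fell by 0.96 ± 0.24 (adjusted p = 0.00689). Clec4f stood at 27.8, 18.6, 14.1 and 23.4 CPM against 34.5, 31.7, 35.3 and 27.4 CPM, with 1 TCDD library just above the lowest vehicle library, and fell by 0.65 ± 0.21 (adjusted p = 0.0248). The Clec4f call was lost without library P172_09, P172_10, P172_11, P172_46 or P172_47 (adjusted p from 0.0517 to 0.0659). At this hour 37.4% of the genes tested were called and 13.6% lower, beside 3 of the 9 members tested. The groups also differed in library measures. Pairs in no annotated gene were 21.9%, 8.64%, 8.36% and 10.7% of uniquely mapped pairs with TCDD and 4.89% to 5.99% with vehicle, and genes detected were 18337 to 20626 and 15401 to 17203, without overlap in either. Their part in the result was not tested. The 3 calls held without library P172_45, which had the 21.9%, and Stab2 was then called higher (0.75, adjusted p = 0.0476).

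At 96 h under label WT, Cd5l stood at 1.60, 1.86, 1.11 and 1.60 CPM with TCDD and 5.56, 4.85, 2.17 and 3.13 CPM with vehicle, Lyve1 at 1.64, 2.5, 3.44 and 2.65 CPM against 5.32, 4.46, 5.59 and 4.48 CPM, and Pecam1 at 7.72, 10.4, 11.9 and 8.35 CPM against 16.4, 15.4, 12.5 and 16.6 CPM. None of the 3 overlapped between treatments. They fell by 1.29 ± 0.33 (SE; edgeR, adjusted p = 0.0123), 0.90 ± 0.23 (adjusted p = 0.0135) and 0.61 ± 0.16 (adjusted p = 0.0142) on the log2 scale. The Pecam1 call was lost without library P172_29, P172_65 or P172_68, where its fold change came below 1.5. Of its pairs counted by strand, TCDD library P172_65 had 63.3% in the first strand column, the highest share of all libraries (median 50.6%). Unmapped pairs were 11.4% in it and 3.46% to 6.21% in the vehicle libraries. The part of these measures in the result was not tested. All 10 members were tested at 96 h, where 15.1% of genes were called and 5% lower.

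At the remaining hours of label WT, edgeR called 0 of the 8 or 9 members tested, as Ptprc, Clec4f or both were below the filter on low counts. At an unadjusted p under 0.05 there were 0 at 2, 4 and 48 h, 1 at 12 and 24 h and 2 at 72 and 120 h. DESeq2 called 0 except Kdr at 120 h, where it called 591 of 14305 genes. With a block for library order, which the labels do not give as a pairing, Cd5l (−1.16) and Kdr (1.18) were called at 24 h (edgeR, adjusted p = 0.0222 and 0.00647) among 4.25% of genes. Of all genes tested, 0% were called at 2, 4 and 72 h, and the shares at 12, 24, 48 and 120 h were 0.0321%, 0.373%, 0.00763% and 1.46%. Under label PkmΔDRE, edgeR and DESeq2 called 0 members at every hour, with 1 at an unadjusted p under 0.05 at each of 12 and 24 h (Lyve1 both times), 96 h (Cd5l) and 120 h (Kdr). Library P172_104 with its 24.7 CPM of Cd5l was in the 96 h vehicle group, where the other 3 libraries held 1.14, 1.05 and 2.91 CPM. Without libraries P172_80 and P172_104, 0 members were called at 4 and 96 h, with 0 and 1 at an unadjusted p under 0.05, and 0.00817% and 2.25% of genes were called. With all libraries, the share of genes called under label PkmΔDRE was 0% at 2 and 4 h, and from 8 to 120 h the hours followed with 0.106%, 0.024%, 0.016%, 0.404%, 1.13%, 0.0793% and 0.633%. Under label PkmΔDRE, Kdr at 72 h was called without library P172_97 (1.8, adjusted p = 0.0254). That the 8 h and 96 h calls arose under label WT and not under label PkmΔDRE does not show a difference between the labels, which was tested only as an average over the hours.

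**Figure D4:**
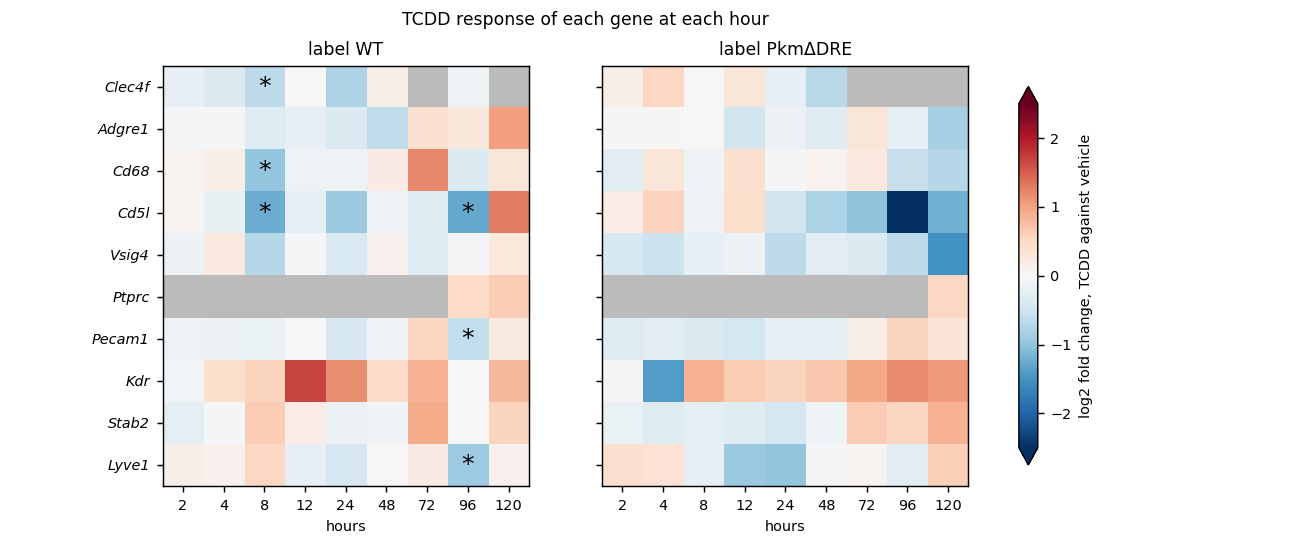
Heatmap of the log2 fold change of TCDD against vehicle for each member (rows) and hour (columns) under both labels, red for higher and blue for lower with TCDD, an asterisk for a call and grey for a gene below the filter. The 6 calls are blue and lie at 8 and 96 h of label WT, and the row of Kdr is red at most hours under both labels.

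Averaged over the 9 hours, Kdr was the only member that edgeR called with TCDD under label WT. At 12 h its libraries held 3.87, 2.25, 13.8 and 3.90 CPM with TCDD and 1.51, 1.17, 3.28 and 1.36 CPM with vehicle, at 24 h 8.14, 9.29, 22.1 and 12.0 CPM against 5.11, 3.6, 11.1 and 4.56 CPM. At 72 h they held 8.09, 7.06, 15 and 9.01 CPM against 6.32, 4.46, 4.56 and 6.64 CPM, and at 120 h 8.75, 11.2, 9.49 and 11 CPM against 6.41, 5.70, 7.81 and 3.08 CPM. Treatments overlapped at 12 and 24 h, and at 72 and 120 h every TCDD library was above every vehicle library. Single-hour log2 fold changes ran from −0.08 at 2 h to 1.70 at 12 h and came to 0.00 at 96 h, and none had an adjusted p below 0.153. The average was 0.61 ± 0.18 (SE; edgeR, adjusted p = 0.00557), in a contrast where 9.17% of genes were called and 7.79% higher. Without the third library of each group it was 0.56 (adjusted p = 0.0188), below the fold change threshold of 1.5. Ptprc was then called higher (1.47, edgeR, adjusted p = 0.0293), and DESeq2 called Ptprc with all libraries (0.96, adjusted p = 0.0453). Binding of AHR at the 2 GCGTG matches of the Kdr upstream sequence was not measured.

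Under label PkmΔDRE the averaged log2 fold change of Kdr was 0.49 ± 0.26 (SE; edgeR, adjusted p = 0.377), and 0.57 without libraries P172_80 and P172_104. At 24 h its libraries held 9.61, 8.24, 10.8 and 15 CPM with TCDD and 5.82, 4.14, 11.8 and 6.04 CPM with vehicle, and at 120 h 19.7, 13.5, 10.4 and 5.20 CPM against 7.31, 7.78, 5.53 and 2.43 CPM, with overlap at both hours. No member was called in this average by edgeR or DESeq2. At an unadjusted p under 0.05 there were 2, Cd5l (−0.68 ± 0.26, adjusted p = 0.157) and Vsig4 (−0.56 ± 0.22, adjusted p = 0.176), and 2.12% of all genes were called. Clec4f under label WT had an averaged −0.57 ± 0.24 (adjusted p = 0.0507).

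**Figure D5:**
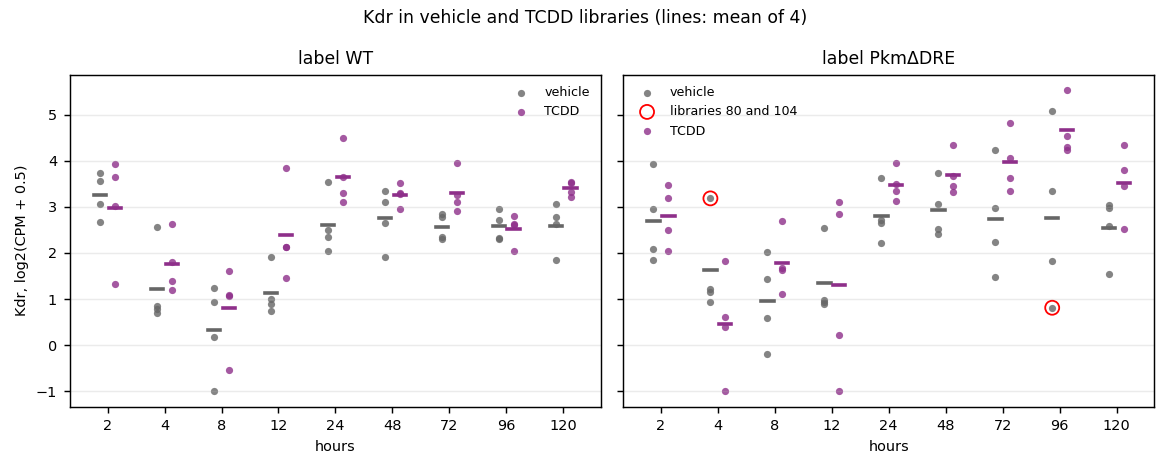
Kdr by hour in vehicle and TCDD cultures of both labels, as log2(CPM + 0.5); points are libraries, short lines are means of 4, and libraries P172_80 and P172_104 are ringed. Both treatments are low at 4 and 8 h, the ringed library at 4 h apart. At 72 and 120 h of label WT the TCDD libraries, 7.06 to 15 and 8.75 to 11.2 CPM, lie above the vehicle libraries.

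Some genes of the lists were also called with TCDD on average. Flt1 rose by 0.93 ± 0.16 (SE) on the log2 scale under label WT (edgeR, adjusted p = 2.45e-05). Ptprb, an endothelial phosphatase that acts on Tek and VEGF receptor signalling, rose by 0.78 ± 0.17 under label WT (adjusted p = 0.000415) and by 0.71 ± 0.21 under label PkmΔDRE (adjusted p = 0.0352). These were the calls among the 22 further endothelial genes, 2 under label WT and 1 under label PkmΔDRE, beside the 9.17% and 2.12% of all genes, and of the 22 Kupffer-cell genes Fcgr1 was lower under label WT (−0.79) and 0 were called under label PkmΔDRE. Csf1 fell by 0.78 ± 0.12 (adjusted p = 1.76e-06) and by 0.98 ± 0.16 (adjusted p = 1.15e-05). Reln, a secreted protein of stellate cells, rose by 2.53 ± 0.25 and 2.23 ± 0.16, and Scara5, a ferritin receptor, fell by 0.86 ± 0.27 and 1.07 ± 0.19. Without libraries P172_80 and P172_104, the values under label PkmΔDRE were 0.67 for Ptprb (adjusted p = 0.0489), −0.84 for Csf1, 2.26 for Reln and −0.99 for Scara5, all still called.

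Between the labels in vehicle, averaged over the hours, 0 members were called by edgeR or DESeq2 and 2 had an unadjusted p under 0.05. Pecam1 was higher under label PkmΔDRE by 0.51 ± 0.13 (SE) on the log2 scale (edgeR, adjusted p = 0.0251), short of the fold change threshold, and Stab2 had 0.40 ± 0.15 (adjusted p = 0.138). Among all genes 1.2% were called. Of the further endothelial genes, 5 of 22 were higher under label PkmΔDRE, namely Emcn (0.90), Gpr182 (0.68), Robo4 (0.63), Eng (0.62) and Esam (0.60), beside 0 of 22 Kupffer-cell genes. Without libraries P172_80 and P172_104 the counts were again 5 and 0, with Cdh5 called and Esam (0.58) below the fold change threshold. Tested against each other, the averaged responses of the 2 labels to TCDD gave 0 calls among members by either tool and 0 at an unadjusted p under 0.05, beside 0.45% of all genes, and for Kdr it was −0.11 ± 0.31 (adjusted p = 0.978). That contrast uses the same libraries as the averages above.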

How the data were processed

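RNA-Seq libraries of primary mouse hepatocytes were analysed from the counts that the authors deposited, 1 file per library, in which STAR 2.7 gave the number of uniquely mapped read pairs on each gene, on GRCm39 and without normalization. The submitters' processing notes also name FastQC 0.11.3, Trimmomatic 0.39 and DESeq2. The count without regard to strand (column 2) was used. The lines that name no gene, 16.8% to 48.0% of the pairs (median 24.2%), were left out, and so depth was 13588848 to 30719161 pairs on genes per library. At these depths a level of 0 allows up to 3 counts, and this covers counting error only. Symbols (52083 of 55359 genes) and exon lengths came from GENCODE M21 on GRCm38. The plate format and seeding density given in the sample characteristics differ from those in the protocols.

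Counts were tested with edgeR 4.0.16 under R 4.3.3 (TMM, filterByExpr with a count minimum of 10 and a total minimum of 15, robust quasi-likelihood test, Benjamini-Hochberg adjustment over all genes tested). Calls needed a fold change of 1.5 or more with an adjusted p below 0.05, and the SE was obtained from the log2 fold change and the F statistic. Hours were compared in the 36 libraries of a label and treatment, TCDD and vehicle in the 8 libraries of a label and hour, and averages over hours in 72 or 144 libraries. Ratios inside libraries were described without a test (Python 3.11.15), and CPM used TMM library sizes over all libraries. The members and lists were chosen with earlier results of these data known. Named genes were all members, Pkm, the 3 genes most like each member, and of each list up to 3 with the largest and up to 3 with the smallest fold change from 2 to 120 h among those called under both labels. Other genes of the lists are named where they were the calls of a count (Flt1, Ptprb, Fcgr1, Scara5, Emcn, Gpr182, Robo4, Eng, Cdh5 and Csf1r), chosen after their values were seen.

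Alternatives were RLE scaling, library totals, no filter, no fold change threshold, the DESeq2 1.42.0 Wald test, a replicate block by library order, and leaving out each library. Leaving out libraries P172_80 and P172_104, a ratio count of 1, and the lists under other scalings were chosen after seeing the data. The tests were checked on simulated counts. The labels give no replicate number, so whether libraries of the same order share an origin is not known. The main tests treated libraries as unpaired, and the block by library order is only an alternative. Columns by strand were not used for levels or tests.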

Additional observations from a re-analysis of the deposited data

Results flagged for a closer look

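A library whose gap to the nearest of the others took up most of the range of its group of 4 was marked for each of the 9 members other than Ptprc. Of 324 groups tested, 36 were marked (11.1%), in 28 libraries. The cut-off marks about 1 in 20 groups by chance only for independent and normally distributed values. CPM were not checked for this and members move together in a library, so no excess over chance is shown. No reason for a marked value was tested. Values are CPM, each followed by the nearest library of its group.

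Libraries P172_80 and P172_104, which went against their hour labels, held 4 of the 36. Library P172_104 (vehicle, 96 h, label PkmΔDRE) was highest in Clec4f with 34.1 (next 0.366), in Cd5l with 24.7 (next 2.91) and in Cd68 with 39.7 (next 18.7). Library P172_80 (vehicle, 4 h, label PkmΔDRE) was highest in Kdr with 8.58 (next 1.82).

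Endothelial members were marked high in several libraries of label PkmΔDRE. With TCDD at 96 h, library P172_138 held 46 of Kdr (next 22.8), 129.4 of Stab2 (next 42.3) and 27.1 of Lyve1 (next 8.80). Stab2 was also high in library P172_102 (vehicle, 96 h) with 117.6 (next 24.9) and in library P172_76 (vehicle, 2 h) with 84.1 (next 38.9). Pecam1 was 80.9 in library P172_128 (TCDD, 24 h; next 38.9) and 48.9 in library P172_135 (TCDD, 72 h; next 27). Lyve1 was 14.2 in library P172_97 (vehicle, 72 h; next 4.10) and 8.22 in library P172_132 (TCDD, 48 h; next 4.26). In library P172_86 (vehicle, 12 h), both Kdr and Vsig4 had 5.32 (next 1.47 and 3.30).

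Under label WT, library P172_15 (vehicle, 12 h) held 3.28 of Kdr (next 1.51) and 47 of Pecam1 (next 30.2) and was lowest in Clec4f with 8.93 (next 25.6). Kdr was 5.41 in library P172_07 (vehicle, 4 h; next 1.29) and 13.8 in library P172_51 (TCDD, 12 h; next 3.90). Stab2 was 67.6 in library P172_03 (vehicle, 2 h; next 43.3), and Pecam1 was 33.2 in library P172_55 (TCDD, 24 h; next 19.2).

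Among macrophage members under label WT, library P172_71 (TCDD, 120 h) was lowest in Vsig4 with 0.323 (next 9.20) and in Cd68 with 7.51 (next 17.9). Clec4f was 14.9 in library P172_20 (vehicle, 24 h; next 5.10) and Cd5l 8.85 in library P172_56 (TCDD, 24 h; next 2.56). Cd68 was 60.9 in library P172_23 (vehicle, 48 h; next 31.4), 59.1 in library P172_42 (TCDD, 4 h; next 43.5) and, as the lowest, 27.3 in library P172_47 (TCDD, 8 h; next 45.3). Vsig4 was 7.30 in library P172_31 (vehicle, 96 h, the lowest; next 9.21) and 7.45 in library P172_49 (TCDD, 12 h; next 4.45). Under label PkmΔDRE, Cd5l was 8.91 in library P172_105 (vehicle, 120 h; next 1.85), Adgre1 3.88 in library P172_87 (vehicle, 12 h; next 2.78), and Cd68 61 in library P172_127 (TCDD, 24 h, the lowest; next 100.0). Vsig4 was 7.71 in library P172_118 (TCDD, 8 h; next 2.47) and 6.18 in library P172_141 (TCDD, 120 h; next 2.16).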

How the results depend on the processing

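Alternatives to the counts of members called, the sums, the ratios inside libraries and the likeness were each marked as the same or as moved. A count of members was taken as the same within 1.5 times and a sum within its SD. By these rules 99 were the same, and the others moved. Of 411 alternatives to members' fold changes 374 were the same, 18 lost a call, 8 gained one and 11 changed sign. With library totals, members called were 1 (from 2 to 24 h) and 3 (from 2 to 120 h) in vehicle under label PkmΔDRE, and 3 from 24 to 120 h in vehicle and 3 from 2 to 120 h with TCDD under label WT. Beside them, in the same order, 8529 of 15968, 11053 of 15968, 6192 of 15862 and 10864 of 15864 genes were called. Summed levels were then 109.6 (macrophage, 2 h), 120.95 and 51.4 CPM (endothelial, 2 and 120 h) under label WT, and 121.8 and 103.5 CPM (macrophage and endothelial, 2 h) under label PkmΔDRE. Without the filter on low counts, 1 member was called from 2 to 24 h under label PkmΔDRE, beside 3967 of 32343 genes. DESeq2 called 2 members (Ptprc and Kdr) in the averaged TCDD response under label WT, beside 1681 of 16838 genes. Without a fold change threshold 1 member (Pecam1) differed between the labels. The replicate block by library order gave 1 call with TCDD under label PkmΔDRE (Lyve1 at 12 h), where genes called rose from 3 to 1439 of 12485. At 2 h of that label they rose from 0 to 1810, with 0 members called. Under label WT the block gave 2 calls at 24 h (Cd5l and Kdr), where genes called rose from 48 to 547. Calls over the 9 hours of label WT thus went from 6 to 8. The block moved no other count of members by over 1.5 times. The mean correlation of libraries of the same order was 0.11 to 0.56, and 7 of 8 orders were most like their own, a hint from the data and not the design.

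Signs changed with library totals for Vsig4 (0.55 under label WT and 0.50 under label PkmΔDRE) and Kdr (0.31 and 0.87) from 2 to 120 h in vehicle and for averaged Adgre1 under label WT (0.015). Averaged Cd68 under label WT was 0.011 with RLE, 0.051 with library totals and 0.011 with DESeq2. Averaged Ptprc under label PkmΔDRE was 0.041 with DESeq2 and 0.22 without libraries P172_80 and P172_104, where averaged Clec4f was 0.15. The cause was not tested. Without those libraries, 16 of 27 likeness genes remained.

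Leaving out 1 library in turn gave 0 to 4 calls from 2 to 24 h under label PkmΔDRE, 4 to 5 under label WT, 6 to 8 from 2 to 120 h under both, 3 to 5 and 4 to 5 from 24 to 120 h (label PkmΔDRE first), 6 to 8 with TCDD from 2 to 120 h under label PkmΔDRE, 5 to 7 with TCDD against vehicle under label WT and 0 to 1 under label PkmΔDRE, and 0 to 1 between labels.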
